A study of Mus musculus with 8 samples.

Results

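Enzymes that use glutathione or thioredoxin to remove peroxides and reactive electrophiles were followed in neural stem and progenitor cells (NSPCs) from Ash2l iKO and WT mice. They were chosen by symbol among the protein-coding genes of the deposited comparison. The symbols name glutathione S-transferases (Gsta, Gstk, Gstm, Gsto, Gstp, Gstt, Gstz), microsomal transferases (Mgst), glutathione peroxidases (Gpx) and peroxiredoxins (Prdx). Others name thioredoxins and their reductases (Txn, Txnrd), glutaredoxins (Glrx) and superoxide dismutases (Sod). To these were added Cat, Gsr, Gss, Gclc, Gclm, Nqo1, Hmox1 and Hmox2. The rule found 60 genes among the 55385 of the table, and used no expression value. The iKO group comprised 4 libraries from mice with the alleles Nestin-CreERT2, Ash2lf/f and tdTomato, and the WT group 4 libraries from mice with Nestin-CreERT2 and tdTomato. Both groups thus carried the inducible Cre, driven by the Nestin promoter, and the reporter. No source used here names the inducing agent or its time. All cells were sorted by flow cytometry from the cortex at postnatal day 7, and RNA was amplified by the full-length Smart-Seq2 method. The labels call the libraries biological replicates and tie none to 1 animal, so p-values reflect only how far these libraries differ among themselves, and part of that may be technical.

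As background, glutathione is a small thiol made in the cytosol by glutamate-cysteine ligase and glutathione synthetase and regenerated by glutathione reductase at the expense of NADPH. Glutathione peroxidases reduce peroxides with it, and glutathione S-transferases couple it to electrophiles. The thioredoxin system works beside it: thioredoxin reductases, which are selenoproteins, keep thioredoxins reduced, and thioredoxins in turn reduce peroxiredoxins. Superoxide dismutases make hydrogen peroxide from superoxide, and catalase, peroxiredoxins and glutathione peroxidases remove it. Many of these genes are known targets of the transcription factor NRF2, which binds antioxidant response elements. ASH2L belongs to the protein complexes that place methyl groups on lysine 4 of histone H3.

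Levels are given as TPM, in which reads are divided by transcript length and by the library total, so that sequencing depth cannot be read from them. At 1 TPM or more, 16089 to 16616 genes were detected, depending on the library. Ash2l, the targeted gene, stood at 7.54, 6.11, 7.69 and 7.18 TPM in the iKO libraries, against 18.1, 16.1, 19.2 and 17.2 TPM in the WT libraries (log2 fold change -1.20, SE 0.0797, limma adjusted p = 3.82e-06). All 9 stem and progenitor markers checked were above 0, and of these 2 were higher and 3 lower in iKO. Their summed levels were 3231 to 3323 TPM (iKO) and 3799 to 3877 TPM (WT). Among them, Slc1a3 averaged 1241 TPM (iKO) against 2039 TPM (WT), and Fabp7 925 TPM (iKO) against 664 TPM (WT). Markers of other cells also differed between the groups. Of 8 astrocyte markers, 7 were lower and 1 higher in iKO (sums 3435 to 3614 TPM in iKO cells, 5163 to 5353 TPM in WT cells). Moreover, 7 of 8 endothelial markers were higher (742 to 788 TPM in iKO cells, 423 to 437 TPM in WT cells). All 6 tested of 8 erythroid markers were higher (734 to 853 TPM in iKO cells, 79.5 to 92.5 TPM in WT cells). So were all 9 tested of 10 airway and olfactory epithelium markers (198 to 237 TPM in iKO cells, 10.8 to 13.0 TPM in WT cells). Among these markers, Bpifa1, Bpifb3 and Bpifb6 were listed at 0 in all WT libraries. Bpifb4 and Ugt2a2 averaged 0.066 and 0.087 TPM in WT. Markers this low in WT could be tested only because they were high enough in the iKO libraries, so they had to come out higher. By contrast, 6 of 8 microglial markers were lower (371 to 384 TPM in iKO cells, 444 to 465 TPM in WT cells). Mast cell markers were higher in 4 of 5 tested cases (79.6 to 90.4 TPM in iKO cells, 20.2 to 24.4 TPM in WT cells). Of 7 neuroblast markers, 6 were higher and 1 lower (1989 to 2053 TPM in iKO cells, 1794 to 1827 TPM in WT cells). Oligodendrocyte lineage markers (2 higher and 4 lower of 7 tested) and meningeal fibroblast markers (2 higher and 3 lower of 6) went both ways. In such bulk samples, fewer cells of a type and less RNA per cell cannot be told apart. A score of Y-linked genes against Xist also separated the groups, at -0.824 to -0.262 in iKO and 0.565 to 1.011 in WT. With that score as a covariate, 5 of the 36 changed antioxidant genes described next kept a limma adjusted p under 0.05 (Txn2, Prdx6, Gpx6, Sod3 and Prdx2). Of these, Gpx6 was tested only because it was high enough in the iKO libraries. Score and genotype cannot be told apart. The part of the marker differences in the results was not tested.

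Of the 60 genes, 49 reached 1 TPM in at least 4 libraries and were tested, and 36 of these changed: 20 were higher and 16 lower in iKO. A change was a two-sided limma adjusted p of under 0.05 (Benjamini-Hochberg over all 16413 genes tested), and 52.6% of all genes tested met it, 20.7% higher and 31.9% lower in iKO. Among the antioxidant genes the shares were 73.5% changed, 40.8% higher and 32.7% lower. With the filter set at a mean of at least 5 TPM, 6933 of all 11638 genes tested changed. Of 44 antioxidant genes tested there, 19 were higher and 16 lower. The iKO and WT libraries did not overlap for 37 of the 49 genes (20 higher and 17 lower), against 49.2% of all genes tested (19.2% higher and 29.9% lower). Of all changed genes, 39.3% were higher; the share was 50.04% with trimmed mean factors, 49.7% with quantile normalization, 53.4% with a length and GC trend removed and 50.6% in the authors' deposited table. The antioxidant genes then had 21, 21, 20 and 22 higher and 13, 16, 14 and 13 lower. The median log2 fold change of the 49 was -0.047, beside -0.061 for all genes tested. Most changes were small. In all, 61.1% of the changed antioxidant genes and 68.2% of all changed genes moved by less than 0.5 on the log2 scale. Gpx6 was the 1 gene that passed the filter through the iKO libraries alone, so it had to differ, and it adds 1 to the count of higher genes.

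**Figure D1:**
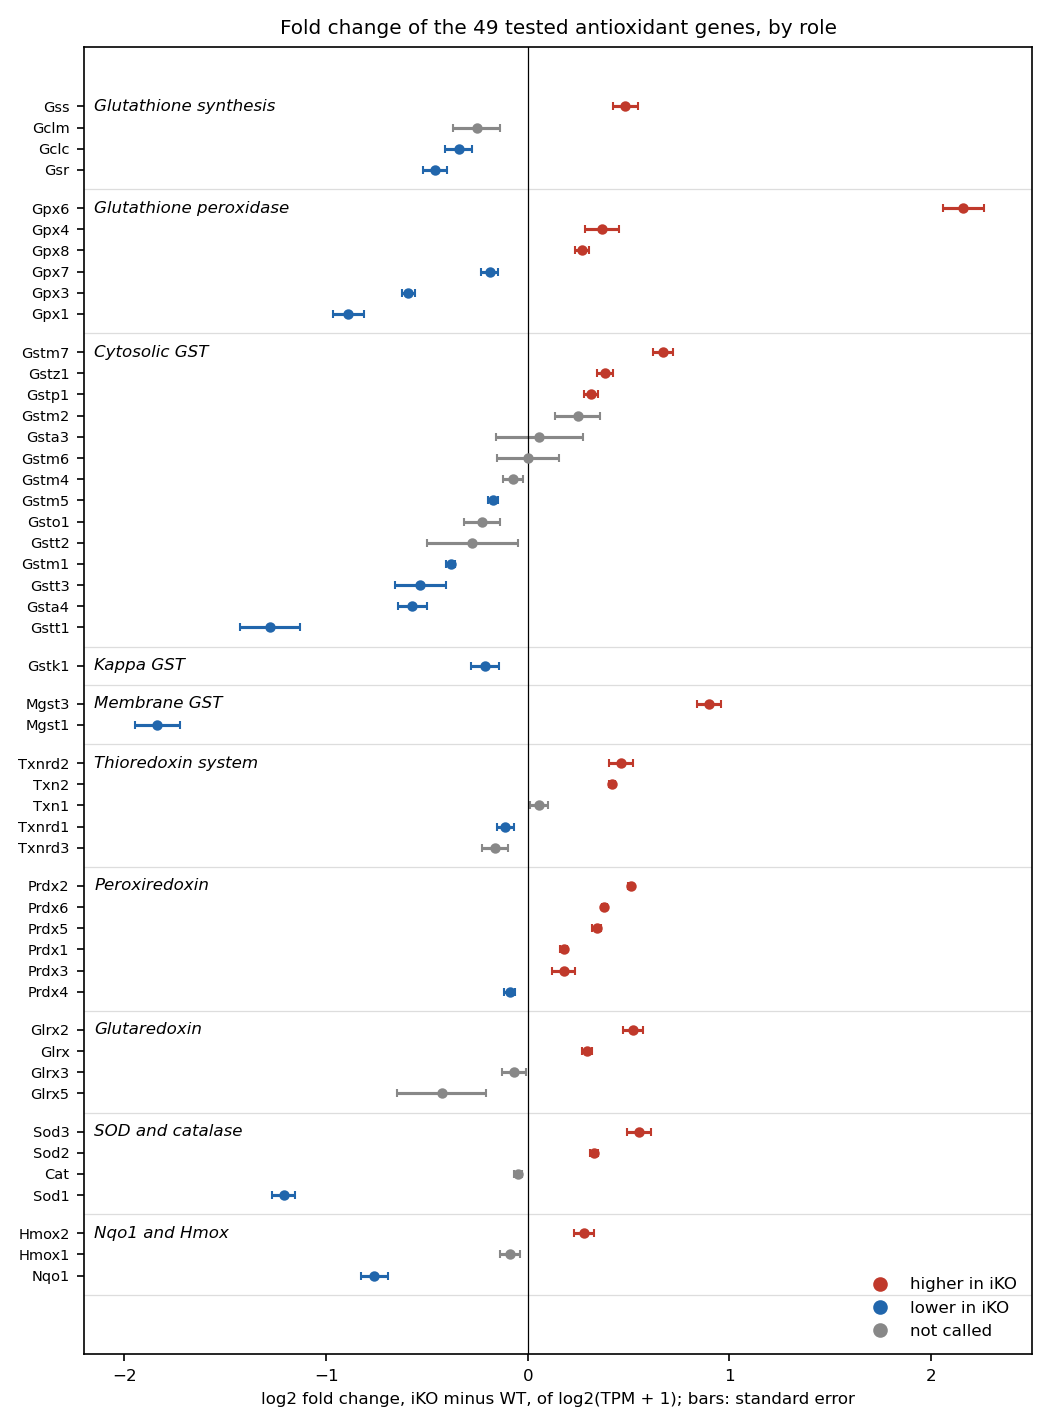
Differences of mean log2(TPM + 1) between iKO and WT libraries (x axis, positive where iKO is higher) of the 49 tested antioxidant genes (y axis), grouped by role, with bars for the standard error and n = 4 libraries a group. Changes ran in both directions in all roles but the glutaredoxins and the kappa transferase, with Mgst1 at -1.84 the lowest and Gpx6 at 2.16 the highest.

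By summed level, the peroxiredoxins made up more than any other role, with 4289 to 4386 TPM in the iKO libraries and 3389 to 3443 TPM in the WT libraries. The thioredoxins and reductases summed to 599.9 to 615 TPM in iKO cells and 497 to 514 TPM in WT cells, and the glutaredoxins to 292 to 314 TPM in iKO cells and 231 to 239 TPM in WT cells. These 3 roles stood higher in every iKO library than in any WT library. The cytosolic transferases stood lower, at 1404 to 1431 TPM in iKO cells and 1557 to 1570.0 TPM in WT cells. So did the membrane transferases, at 37.27 to 38.99 TPM in iKO cells and 40.65 to 44.63 TPM in WT cells. The kappa transferase was lower too, at 17.31 to 19.15 TPM in iKO cells and 19.27 to 24.27 TPM in WT cells. Superoxide dismutases with catalase, at 369.9 to 379 TPM in iKO cells and 369.7 to 377 TPM in WT cells, overlapped. All 60 genes together held 7606 to 7715 TPM in iKO cells and 6689 to 6764 TPM in WT cells. These sums are descriptions and were not tested.

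Of the 4 genes of glutathione synthesis and recycling, 1 rose, 2 fell and 1 did not pass. Gss (ENSMUSG00000027610.17), glutathione synthetase, which adds glycine in the last step, rose to 35.8 ± 2.83 TPM in iKO cells, against 25.3 ± 1.43 TPM in WT cells (SD, n = 4; log2 fold change 0.48, SE 0.0636, limma adjusted p = 2.43e-04). Gsr, glutathione reductase, fell, with 14.3 ± 0.726 TPM in iKO cells, against 20.1 ± 1.31 TPM in WT cells (SD, n = 4; log2 fold change -0.46, SE 0.0589, limma adjusted p = 2.08e-04). Gclc, the catalytic subunit of glutamate-cysteine ligase, the rate-limiting enzyme, also fell, with 4.98 ± 0.384 TPM in iKO cells, against 6.58 ± 0.332 TPM in WT cells (SD, n = 4; log2 fold change -0.34, SE 0.0680, limma adjusted p = 0.00265). Its modifier subunit gene Gclm stood at 17.7 ± 2.12 TPM in iKO cells, against 21.4 ± 3.21 TPM in WT cells (SD, n = 4) and did not pass (limma adjusted p = 0.1001), though it did without WT replicate 4 (log2 fold change -0.36, limma adjusted p = 0.0134). The gene for the last step was thus higher and those for the first step and for recycling lower or not called. Exons of Gclm share 244 bases on the same strand with the pseudogene Gm6061, which stood at 4.05 TPM in iKO cells, against 0.69 TPM in WT cells. The part of this overlap in the Gclm values was not tested. Exons of Gss overlap those of Acss2 on the other strand by 395 bases, and Acss2 stood at 59.5 TPM in iKO cells, against 38.8 TPM in WT cells. Whether counting used strand is not given in the sources used here.

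Among the 6 tested of 8 glutathione peroxidases, 3 rose and 3 fell. Gpx1 (ENSMUSG00000063856.7), the cytosolic selenoenzyme that reduces hydrogen peroxide, stood at 8.02, 8.69, 10.4 and 9.15 TPM in the iKO libraries, against 18.5, 16.5, 16.8 and 18.6 TPM in the WT libraries. Gpx3, the secreted selenoenzyme, stood at 57.6, 57.8, 58.3 and 62.2 TPM in the iKO libraries, against 86.9, 90.2, 90.8 and 89.8 TPM in the WT libraries. For both, every iKO library lay below every WT library, and both fell (Gpx1: log2 fold change -0.89, SE 0.0787, limma adjusted p = 2.14e-05; Gpx3: log2 fold change -0.59, SE 0.0324, limma adjusted p = 1.22e-06). Gpx4, the selenoenzyme that reduces lipid hydroperoxides in membranes and protects from ferroptosis, rose to 199 ± 11.5 TPM in iKO cells, against 154 ± 19.1 TPM in WT cells (SD, n = 4; log2 fold change 0.37, SE 0.0833, limma adjusted p = 0.00527). Gpx8, a peroxidase of the endoplasmic reticulum, rose to 82.9 TPM (iKO) against 68.6 TPM (WT) (log2 fold change 0.27). Gpx7, its relative in the same compartment, fell to 42.7 TPM (iKO) against 48.8 TPM (WT) (log2 fold change -0.19; limma adjusted p = 0.00524). The authors' deposited table did not call Gpx7 (log2 fold change -0.13, adjusted p = 0.0868).

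Gpx6 (ENSMUSG00000004341.8), a glutathione peroxidase known from the olfactory epithelium and named here after its values were seen, stood at 3.399, 3.773, 3.563 and 3.977 TPM in the iKO libraries. In WT it was listed at 0 in replicates 1, 2 and 4 and stood at 0.197 TPM in replicate 3. No WT library came near the iKO level. In the same libraries the airway and olfactory epithelium markers Bpifa1, Bpifb3 and Bpifb6 averaged 68.5, 39.1 and 16.8 TPM in iKO and were listed at 0 in all WT libraries, and their part in the Gpx6 level was not tested. Its neighbour Gpx5, an epididymal peroxidase gene, was listed at 0 in all libraries but WT replicate 4, where it stood at 0.0744 TPM, and Gpx2 was listed at 0 in all 8.

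Cytosolic glutathione S-transferases numbered 21, of which 14 were tested; 3 rose, 5 fell and 6 did not pass. Gstm1 (ENSMUSG00000058135.12), the most abundant transferase here and one known to be high in astrocytes, stood at 714, 758, 751 and 720.1 TPM in the iKO libraries, against 935, 976, 962 and 963 TPM in the WT libraries. It fell (log2 fold change -0.38, SE 0.0228, limma adjusted p = 2.03e-06), and the astrocyte marker sum was lower in the same libraries; the part of that difference was not tested. Gstm5, a mu-class brain transferase, fell to 171 ± 3.36 TPM in iKO cells, against 193 ± 5.75 TPM in WT cells (SD, n = 4; log2 fold change -0.17, limma adjusted p = 5.75e-04). Gstm7 (ENSMUSG00000004035.12), of the same class, went the other way, with 117, 122, 119.5 and 118 TPM in the iKO libraries, against 82.0, 73.5, 74.6 and 68.4 TPM in the WT libraries. All its iKO values lay above all its WT values (log2 fold change 0.67, SE 0.0498, limma adjusted p = 7.24e-06). Gstm2 at 8.22 TPM (iKO) against 6.82 TPM (WT), Gstm4 at 14.3 TPM (iKO) against 15.1 TPM (WT) and Gstm6 at 9.54 TPM (iKO) against 9.45 TPM (WT) did not pass (limma adjusted p of 0.0986, 0.229 and 0.997). Gstm2 did pass with trimmed mean factors (0.0469) and quantile normalization (0.0226), at log2 fold changes of 0.30 and 0.36.

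The 7 mu-class genes lie side by side on chromosome 3, where Gstm5 and Gstm7 are neighbours transcribed from opposite strands. These neighbours changed in opposite directions, and Gstm6, next to Gstm7, had a log2 fold change of 0.00073 (SE 0.151). The mu-class transcripts resemble each other: that of Gstm7 matched Gstm2 at 86.2% identity over 60.5% of the shorter transcript and Gstm1 at 82.8% over 51.9%, both below the 95% used here to call near-identical copies. The authors' deposited table listed Gstm7 at 0.84 and Gstm6 at -0.33 (log2), so the Gstm6 values of the 2 tables differed in sign and neither was called. A theta-class cluster lies on chromosome 10, and both of its genes that changed were lower in iKO. Gstt1 (ENSMUSG00000001663.10) stood at 4.43, 4.19, 2.58 and 2.70 TPM in the iKO libraries, against 9.36, 10.7, 9.91 and 8.77 TPM in the WT libraries, with no overlap (log2 fold change -1.28, SE 0.147, limma adjusted p = 1.08e-04). Gstt3 fell to 1.33 ± 0.360 TPM in iKO cells, against 2.35 ± 0.316 TPM in WT cells (SD, n = 4; log2 fold change -0.53, SE 0.129, limma adjusted p = 0.00743), Gstt2 at 2.23 TPM (iKO) against 3.03 TPM (WT) did not pass, and Gstt4 was listed at 0 in all libraries.

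**Figure D2:**
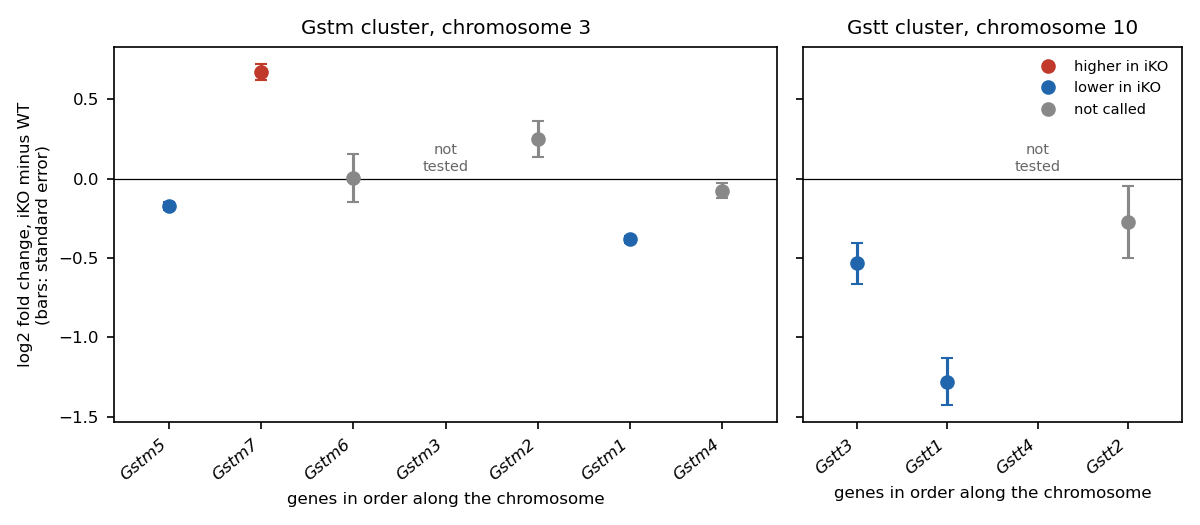
Log2 fold changes, iKO minus WT (y axis, bars for the standard error, n = 4 libraries a group), of mu-class (left) and theta-class (right) transferase genes in their order along the chromosome (x axis). Gstm7 at 0.67 stands between its neighbours Gstm5 at -0.17 and Gstm6 near 0, and Gstt3 and Gstt1 lie at -0.53 and -1.28.

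Gstp1 (ENSMUSG00000060803.6), the pi-class transferase, stood at 301, 286, 275 and 293 TPM in the iKO libraries, against 241, 229.9, 237 and 222 TPM in the WT libraries, and rose (log2 fold change 0.31, SE 0.0345, limma adjusted p = 8.43e-05). Its transcript matched that of Gstp2 at 94.2% identity over the whole shorter transcript. With Gstp2 and a pseudogene copy added, the sums were 291 ± 11.6 TPM in iKO cells, against 233.5 ± 8.56 TPM in WT cells (SD, n = 4; log2 difference 0.32), with no overlap (exact two-sided permutation p = 0.0286, the smallest that 4 against 4 libraries allow). Gstz1, maleylacetoacetate isomerase of tyrosine breakdown, rose to a mean of 30.2 TPM (iKO) against 23.0 TPM (WT) (n = 4; log2 fold change 0.38, limma adjusted p = 5.85e-05). Gsta4 (ENSMUSG00000032348.6), the alpha-class enzyme that conjugates the lipid peroxidation product 4-hydroxynonenal, stood at 6.14, 6.18, 6.78 and 6.11 TPM in the iKO libraries, against 9.80, 8.93, 9.68 and 11.1 TPM in the WT libraries, and fell (log2 fold change -0.57, SE 0.0714, limma adjusted p = 1.75e-04). Gsta3 at 1.14 TPM (iKO) against 0.993 TPM (WT) and the omega-class gene Gsto1 at 19.6 TPM (iKO) against 23.1 TPM (WT) did not pass (limma adjusted p of 0.844 and 0.0549). Gsto1 passed without iKO replicate 4 (0.0199), without WT replicate 1 (0.0359) and with a mean TPM of at least 5 (0.0469), at log2 fold changes of -0.29, -0.27 and -0.23. The kappa-class gene Gstk1, whose enzyme sits in mitochondria and peroxisomes, stood at 18.2 ± 0.911 TPM in iKO cells, against 21.3 ± 2.12 TPM in WT cells (SD, n = 4; log2 fold change -0.21, limma adjusted p = 0.0315), a call that was lost without iKO replicate 2 or 3 or WT replicate 1, 2 or 4 (0.0509 to 0.0797). Trimmed mean factors (-0.15, 0.0954), quantile normalization (-0.14, 0.113) and the authors' deposited table (-0.13, 0.408) did not call it either.

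Of the 3 microsomal transferase genes, 2 were tested, of which 1 was higher and 1 lower in iKO. Mgst1 (ENSMUSG00000008540.11), a membrane enzyme with transferase and peroxidase activity toward lipid hydroperoxides, stood at 8.38, 5.66, 5.77 and 7.49 TPM in the iKO libraries, against 26.2, 26.6, 25.7 and 28.3 TPM in the WT libraries. Its iKO mean was 25.6% of its WT mean, the lowest share among the 49 tested antioxidant genes (log2 fold change -1.84, SE 0.111, limma adjusted p = 2.11e-06). Mgst3 (ENSMUSG00000026688.5), its relative in the same membranes, stood at 29.1, 31.6, 32.1 and 28.6 TPM in the iKO libraries, against 16.5, 16.5, 14.5 and 15.8 TPM in the WT libraries, an iKO mean that was 192% of the WT mean (log2 fold change 0.90, SE 0.0576, limma adjusted p = 3.07e-06). Mgst2, which also makes leukotriene C4, was below the filter: it stood at 2.94 TPM in iKO replicate 4, at 0 to 0.0718 TPM in the other iKO libraries and at 0.243 to 0.532 TPM in WT (exact two-sided permutation p = 1). The authors' deposited table listed Mgst2 at -2.73 (log2, adjusted p = 0.00121), although its mean TPM was higher in iKO; without iKO replicate 4, all iKO values lay below all WT values.

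Of the 5 thioredoxin and thioredoxin reductase genes, 2 rose, 1 fell and 2 did not pass. Txn2 (ENSMUSG00000005354.16), mitochondrial thioredoxin, stood at 398, 391, 401 and 399 TPM in the iKO libraries, against 299, 294, 297 and 298 TPM in the WT libraries, and rose (log2 fold change 0.42, SE 0.0147, limma adjusted p = 9.94e-08). Txnrd2, the mitochondrial reductase that serves it, rose to 25.3 ± 1.90 TPM in iKO cells, against 18.0 ± 0.727 TPM in WT cells (SD, n = 4; log2 fold change 0.46, SE 0.0585, limma adjusted p = 1.91e-04). Txn1, the cytosolic thioredoxin, stood at 114 ± 4.07 TPM in iKO cells, against 109 ± 5.88 TPM in WT cells (SD, n = 4) and did not pass (limma adjusted p = 0.302). The authors' deposited table called it higher (log2 fold change 0.15, adjusted p = 0.00528). The cytosolic reductase gene Txnrd1 stood at 58.1 ± 3.08 TPM in iKO cells, against 62.8 ± 1.30 TPM in WT cells (SD, n = 4; log2 fold change -0.11, limma adjusted p = 0.0464). The call was lost without any of iKO replicates 1, 3 and 4 and WT replicates 1, 2 and 3 (0.0507 to 0.0964). It was lost too with trimmed mean factors (log2 fold change -0.048, limma adjusted p = 0.349), with a length and GC trend removed (-0.028, 0.597) and in the authors' deposited table (-0.045, adjusted p = 0.298). Txnrd3, the reductase known from testis, stood at 15.1 TPM (iKO) against 17.0 TPM (WT) and did not pass (limma adjusted p = 0.0633), but did without iKO replicate 4 (log2 fold change -0.21, 0.0213) or WT replicate 3 (-0.21, 0.0243). Whether the Txn2 and Txn1 changes differ was not tested.

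Of the 6 tested of 7 peroxiredoxins, 5 rose and 1 fell. Prdx2 (ENSMUSG00000005161.15), a cytosolic enzyme that is also among the most abundant proteins of red blood cells, stood at 1390.0, 1425, 1398 and 1407 TPM in the iKO libraries, against 981, 995, 1002 and 970.1 TPM in the WT libraries. The lowest iKO library was far above the highest WT library (log2 fold change 0.51, SE 0.0136, limma adjusted p = 2.11e-08). The erythroid markers rose in the same libraries, with Hba-a1 at 519 TPM in iKO cells, against 21.3 TPM in WT cells, and their part in the Prdx2 change was not tested. Exons of Prdx2 overlap those of Junb on the other strand by 173 bases, and Junb stood at 695 TPM in iKO cells, against 693.5 TPM in WT cells. Prdx6 (ENSMUSG00000026701.15), the peroxiredoxin that uses glutathione and is known to be high in astrocytes, stood at 1342, 1375, 1371 and 1361 TPM in the iKO libraries, against 1059, 1060.1, 1028 and 1041 TPM in the WT libraries. It rose (log2 fold change 0.38, SE 0.0138, limma adjusted p = 1.23e-07). The astrocyte marker sum was lower in the same libraries, and the part of that difference in the Prdx6 level was not tested. Prdx1, the other main cytosolic form, stood at 916, 934, 948 and 918 TPM in the iKO libraries, against 819, 821, 836 and 808 TPM in the WT libraries, a smaller rise (log2 fold change 0.18, limma adjusted p = 2.17e-05).

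Prdx5, an atypical peroxiredoxin of mitochondria and peroxisomes, stood at 391, 393, 390.1 and 379 TPM in the iKO libraries, against 303, 296, 313 and 312 TPM in the WT libraries, and rose (log2 fold change 0.34, SE 0.0225, limma adjusted p = 3.57e-06). Prdx3, the mitochondrial peroxiredoxin reduced by thioredoxin 2, stood at 36.0 ± 0.368 TPM in iKO cells, against 31.8 ± 2.54 TPM in WT cells (SD, n = 4; log2 fold change 0.18, limma adjusted p = 0.0252). That call was lost without iKO replicate 1 (0.0529), 2 (0.0581) or 3 (0.0529). Prdx4, the secretory pathway form, stood at 215, 222, 227 and 217 TPM in the iKO libraries, against 244, 233, 229.8 and 230.5 TPM in the WT libraries, which was lower by the test (log2 fold change -0.09, limma adjusted p = 0.0176) but not with trimmed mean factors (-0.026, adjusted p = 0.475) or in the authors' deposited table (-0.004, adjusted p = 0.948). Prdx6b was listed at 0 in all libraries.

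Glutaredoxins, which use glutathione to reduce mixed disulfides, rose in 2 of 4 cases and fell in none. Glrx2 (ENSMUSG00000018196.18), the mitochondrial and nuclear form, stood at 134, 124, 148 and 135 TPM in the iKO libraries, against 93.1, 96.5, 94.1 and 90.8 TPM in the WT libraries, with no overlap (log2 fold change 0.52, SE 0.0495, limma adjusted p = 3.31e-05). With 3 near-identical pseudogene copies added the sums were 144 ± 13.0 TPM in iKO cells, against 104 ± 9.77 TPM in WT cells (SD, n = 4; exact two-sided permutation p = 0.0286). The authors' deposited table gave Glrx2 a smaller log2 fold change, 0.21. Glrx, the cytosolic glutaredoxin 1 gene, rose to 140.2 ± 3.04 TPM in iKO cells, against 114 ± 1.52 TPM in WT cells (SD, n = 4; log2 fold change 0.29, SE 0.0232, limma adjusted p = 1.08e-05). The iron-sulfur cluster assembly genes Glrx3 (23.1 TPM (iKO) against 24.3 TPM (WT)) and Glrx5 (1.38 TPM (iKO) against 2.14 TPM (WT)) did not pass (limma adjusted p of 0.351 and 0.136), though Glrx5 did without iKO replicate 4 (log2 fold change -0.60, adjusted p = 0.0344).

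The 3 superoxide dismutase genes, one for each compartment, changed in different directions. Sod1 (ENSMUSG00000022982.10), the copper-zinc enzyme of the cytosol, stood at 23.7, 23.8, 20.3 and 24.7 TPM in the iKO libraries, against 54.6, 56.4, 54.1 and 54.0 TPM in the WT libraries. Every iKO library lay below every WT library, and Sod1 fell (log2 fold change -1.21, SE 0.0583, limma adjusted p = 5.60e-07). The authors' deposited table gave Sod1 a log2 fold change of -0.50, against -1.24 for the ratio of mean TPM. Sod2, the manganese enzyme of the mitochondrial matrix, rose to 153 ± 2.24 TPM in iKO cells, against 121 ± 0.960 TPM in WT cells (SD, n = 4; log2 fold change 0.33, SE 0.0198, limma adjusted p = 2.25e-06). Sod3 (ENSMUSG00000072941.5), the extracellular enzyme, stood at 19.7, 18.8, 20.9 and 22.4 TPM in the iKO libraries, against 13.1, 14.5, 13.4 and 13.6 TPM in the WT libraries, and rose (log2 fold change 0.55, SE 0.0604, limma adjusted p = 7.88e-05). Cat, the peroxisomal catalase, stood at 177 ± 3.74 TPM in iKO cells, against 183 ± 1.93 TPM in WT cells (SD, n = 4). Its libraries did not overlap, but it did not pass (log2 fold change -0.047, limma adjusted p = 0.0855). Its sign turned with trimmed mean factors (0.017, adjusted p = 0.545). With quantile normalization it passed as lower (-0.11, 0.00306).

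Nqo1 (ENSMUSG00000003849.8), the quinone reductase that is a standard NRF2 target, stood at 14.8, 13.8, 15.6 and 13.2 TPM in the iKO libraries, against 25.4, 23.4, 24.1 and 27.2 TPM in the WT libraries, and fell with no overlap (log2 fold change -0.76, SE 0.0651, limma adjusted p = 1.75e-05). Hmox1, the stress-inducible haem oxygenase and another standard NRF2 target, stood at 34.9 ± 0.708 TPM in iKO cells, against 37.3 ± 2.59 TPM in WT cells (SD, n = 4) and did not pass (log2 fold change -0.089, limma adjusted p = 0.168). Hmox2, the constitutive form, rose to 54.5 ± 3.50 TPM in iKO cells, against 44.7 ± 1.52 TPM in WT cells (SD, n = 4; log2 fold change 0.28, SE 0.0493, limma adjusted p = 0.00141). Its exons overlap those of Cdip1 on the other strand by 892 bases, and Cdip1 stood at 122 TPM (iKO) against 157 TPM (WT). Exons of Prdx5, Gstz1, Gstm5 and Gclm likewise share 409, 465, 178 and 296 bases with Trmt112, Pomt2, 4933431E20Rik and Gm17494 on the other strand.

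**Figure D3:**
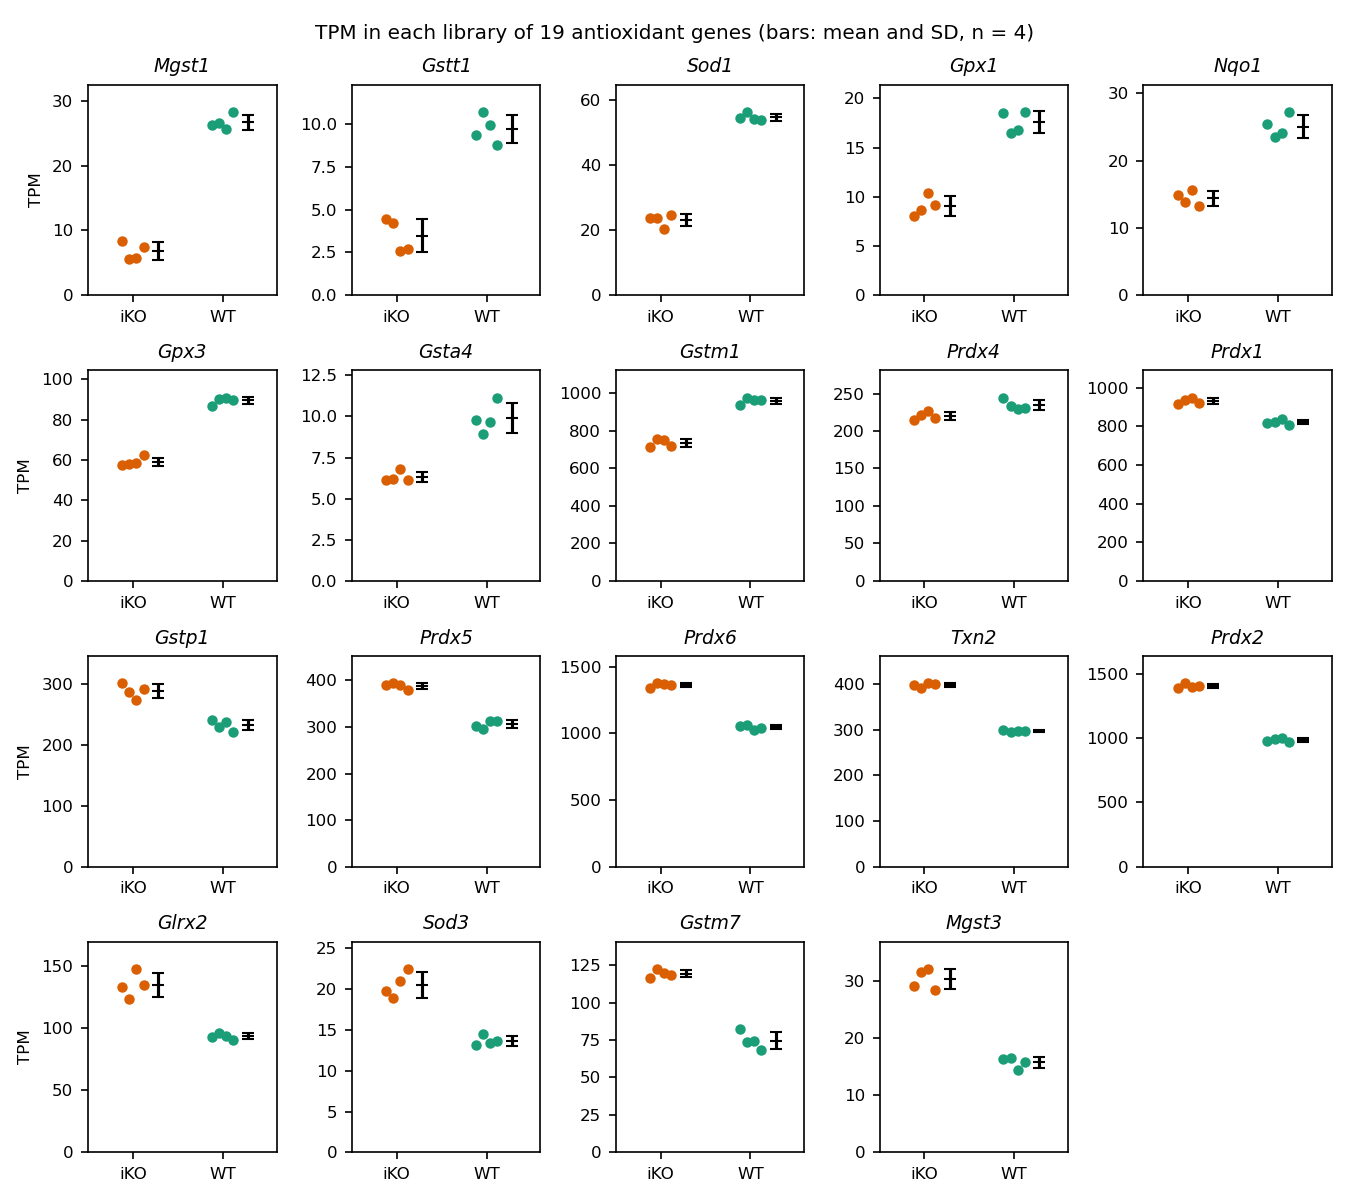
TPM (y axis, from 0) in each of the 4 iKO and 4 WT libraries for 19 antioxidant genes, with bars for the mean and SD, ordered from the lowest to the highest fold change. Mgst1, Gstt1 and Sod1 open the row of falls and Mgst3, at 28.6 to 32.1 TPM in iKO cells and 14.5 to 16.5 TPM in WT cells, closes the rises; no panel shows overlap between the groups.

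Genes were also read by features that the choice of symbols had not used, in groupings made after the values were seen and therefore not tested. Of 8 genes for mitochondrial enzymes (Sod2, Prdx3, Prdx5, Txn2, Txnrd2, Glrx2, Glrx5 and Gstk1), 6 were higher, 1 lower and 1 not called, with a median log2 fold change of 0.33. These counts depend on which genes are listed as mitochondrial. Of all 49 tested antioxidant genes, 40.8% were higher and 32.7% lower, and of all genes tested 20.7% and 31.9%. Of 6 tested selenoprotein genes (Gpx1, Gpx3, Gpx4, Txnrd1, Txnrd2 and Txnrd3), 2 were higher, 3 lower and 1 not called, with a median of -0.14. Among the changed genes with a promoter sequence, the CpG content relative to base composition (observed over expected) had a median of 0.67 in 18 higher genes and 0.585 in 13 lower genes. Over all genes tested, it was 0.762 in 2511 higher and 0.729 in 3694 lower genes.

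Promoter windows (250 bases before to 50 after a start site, RefSeq, GRCm38.p6) were found for 52 of the 60 genes, using the first start site listed. Gclc, Gsr, Gsta4, Gstt2, Hmox1, Prdx6, Prdx6b and Sod3 had no entry. The core of the antioxidant response element, TGACNNNGC, searched on both strands, occurred in 6 of the 52 (11.5%), against 12.5% of 27025 genes. It was present in Prdx1, which rose, in Gstm5, Mgst1 and Sod1, which fell, and in Gclm and Gsta3, which did not pass. The match in Prdx1, TGACTCAGC, also holds the AP-1 site TGACTCA. Outside any match, that site also stood in the windows of Gstm5, which fell, and of Glrx and Gstp1, which rose. It was not counted over all windows. These windows are shown: the 4 changed genes with a match, and Mgst3 and Nqo1, which moved oppositely and hold none. Capitals mark the match, which in Mgst1, Sod1 and Prdx1 lies on the other strand. Their positions are chr6:138140277-138140576, plus strand for Mgst1, chr16:90220512-90220811, plus strand for Sod1, chr3:107895604-107895903, plus strand for Gstm5, chr4:116685349-116685648, plus strand for Prdx1, chr8:107403156-107403455, minus strand for Nqo1 and chr1:167393792-167394091, minus strand for Mgst3.
Mgst1: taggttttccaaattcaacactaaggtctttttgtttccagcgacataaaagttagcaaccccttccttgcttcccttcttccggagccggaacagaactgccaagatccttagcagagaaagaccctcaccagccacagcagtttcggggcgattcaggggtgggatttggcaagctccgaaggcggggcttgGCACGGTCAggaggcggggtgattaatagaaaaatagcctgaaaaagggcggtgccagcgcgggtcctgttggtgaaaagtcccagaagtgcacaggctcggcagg
Sod1: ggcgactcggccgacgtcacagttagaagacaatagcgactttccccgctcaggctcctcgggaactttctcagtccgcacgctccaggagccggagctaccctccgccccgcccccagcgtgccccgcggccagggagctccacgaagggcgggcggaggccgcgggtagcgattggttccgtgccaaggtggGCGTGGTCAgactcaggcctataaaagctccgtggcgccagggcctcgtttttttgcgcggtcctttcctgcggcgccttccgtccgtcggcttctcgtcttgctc
Gstm5: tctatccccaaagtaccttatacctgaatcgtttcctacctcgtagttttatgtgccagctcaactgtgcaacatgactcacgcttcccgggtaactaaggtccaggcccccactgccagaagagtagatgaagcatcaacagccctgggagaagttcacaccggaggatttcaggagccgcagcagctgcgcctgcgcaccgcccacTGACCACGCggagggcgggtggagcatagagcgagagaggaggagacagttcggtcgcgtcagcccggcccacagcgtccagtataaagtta
Prdx1: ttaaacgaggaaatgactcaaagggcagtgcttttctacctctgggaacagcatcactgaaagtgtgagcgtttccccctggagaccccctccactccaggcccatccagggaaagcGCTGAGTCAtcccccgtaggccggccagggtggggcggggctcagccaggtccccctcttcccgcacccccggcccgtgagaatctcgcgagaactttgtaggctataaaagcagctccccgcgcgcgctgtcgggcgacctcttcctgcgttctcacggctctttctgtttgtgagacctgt
Nqo1: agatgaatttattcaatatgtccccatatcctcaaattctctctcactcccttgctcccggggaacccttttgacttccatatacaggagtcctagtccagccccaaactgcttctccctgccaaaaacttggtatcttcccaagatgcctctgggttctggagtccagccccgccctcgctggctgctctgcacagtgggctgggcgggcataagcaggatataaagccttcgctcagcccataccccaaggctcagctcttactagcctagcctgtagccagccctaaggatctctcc
Mgst3: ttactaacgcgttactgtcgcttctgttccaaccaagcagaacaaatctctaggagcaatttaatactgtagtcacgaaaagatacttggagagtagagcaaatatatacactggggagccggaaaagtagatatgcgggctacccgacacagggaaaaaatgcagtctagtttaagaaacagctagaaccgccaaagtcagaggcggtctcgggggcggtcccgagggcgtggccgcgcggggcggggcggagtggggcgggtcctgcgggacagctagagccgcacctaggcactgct
The match begins 56 bases before the start site in Mgst1 and in Sod1, 42 in Gstm5 and 133 in Prdx1. The core thus stood in windows of 3 genes that fell and 1 that rose. Its free positions held other letters in Prdx1 than in the genes that fell. Nqo1 holds no match in these 300 bases; sequence farther upstream was not searched.

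The authors' own comparison of the same libraries called 32 of the 36 genes in the same direction and left out Gpx7, Gstk1, Prdx4 and Txnrd1. Among the 60 genes it also called Txn1, and 2 that were below the filter here, Gstp2 (higher) and Mgst2 (lower). Of the 29438 genes compared in the authors' deposited table, 33.9% were called there. The log2 ratio of mean TPM minus the deposited log2 fold change had a median of -0.082 in the antioxidant genes and -0.082 in all genes tested. It differed by over 0.3 in 5 of 49 antioxidant genes (10.2%), against 6.10% of all genes tested. These were Sod1, Glrx5, Gstt2, Glrx2 and Gstm6, of which Sod1 and Glrx2 were called in both.

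**Figure D4:**
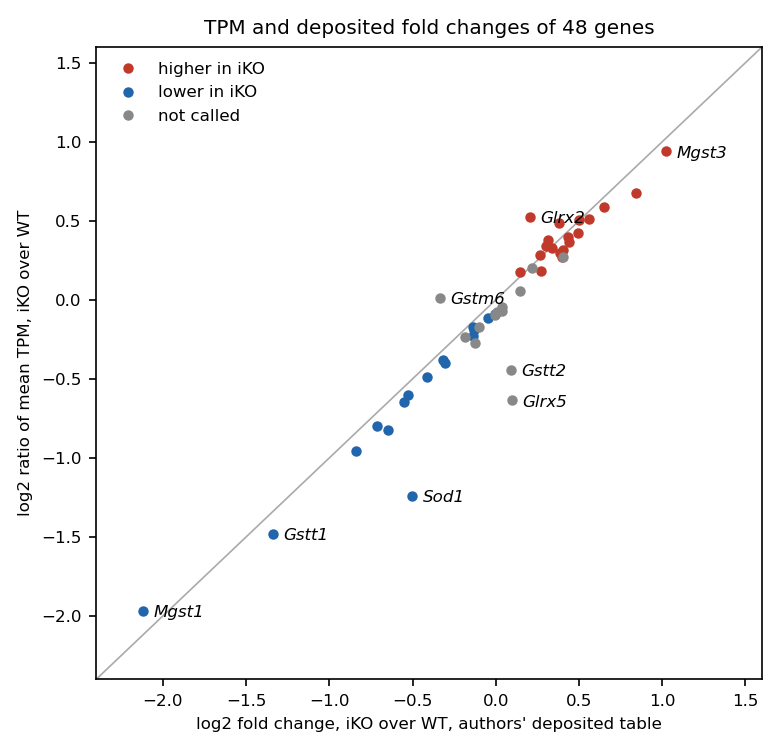
Log2 ratio of mean TPM, iKO over WT (y axis), against the log2 fold change of the authors' deposited table (x axis) for 48 tested antioxidant genes, Gpx6 left out for scale; the grey line marks equality. Most genes lie just below the line, and Sod1 (-1.24 in TPM, -0.50 in the deposited table), Glrx5, Gstt2, Glrx2 and Gstm6 stand away from it.

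Other genes of the same chemistry also moved both ways. Among 16 tested genes of cysteine and glutathione supply, 5 rose, 6 fell and 5 did not pass (median log2 fold change -0.052). Cbs, which opens the transsulfuration route to cysteine, fell to 196 TPM (iKO) against 299 TPM (WT). Slc7a11, the cystine importer, fell to 7.41 TPM (iKO) against 10.4 TPM (WT). Abcc4, an efflux pump, and Oplah, which recycles oxoproline, fell too. In NADPH supply, 5 of 13 rose and 4 fell (median -0.034). The pentose phosphate genes Taldo1 (759.6 TPM (iKO) against 514 TPM (WT)) and Pgls (203 TPM (iKO) against 132 TPM (WT)) rose. Tkt (348 TPM (iKO) against 391 TPM (WT)) and the mitochondrial isocitrate dehydrogenase gene Idh2 (63.6 TPM (iKO) against 132 TPM (WT)) fell. NRF2, its regulators and further targets had 8 of 22 higher and 7 lower (median 0.032). The ferritin genes Ftl1 and Fth1 rose (6856 TPM (iKO) against 5614 TPM (WT) for Ftl1). The epoxide hydrolase gene Ephx1 (23.6 TPM (iKO) against 46.9 TPM (WT)) and the autophagy receptor gene Sqstm1 (384 TPM (iKO) against 517 TPM (WT)) fell.

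Selenoprotein synthesis and further selenoprotein genes had 8 of 19 higher and 6 lower (median 0.094). Selenow, a small thioredoxin-fold selenoprotein, rose to 1614 TPM (iKO) against 914 TPM (WT). Selenop, the secreted selenium carrier made by astrocytes in brain, fell to 502 TPM (iKO) against 786 TPM (WT). Relatives with a thioredoxin fold or linked functions had 5 of 23 higher and 9 lower (median -0.035), among them Txndc17, which rose to 88.4 TPM (iKO) against 50.9 TPM (WT), and Sesn1, a p53-responsive sestrin gene, which fell to 74.4 TPM (iKO) against 132 TPM (WT). Sources of superoxide and peroxide had 1 of 12 tested higher and 3 lower (median -0.021). Ncf1, a subunit of the phagocyte oxidase, at 5.95 TPM (iKO) against 9.56 TPM (WT), was lower, with overlapping libraries. Each named gene of these lists had a limma adjusted p of at most 0.0184. Over these lists 67 of 105 tested genes changed, beside 52.6% of all genes tested.

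Of the 11 genes below the filter, Gpx2, Gstt4 and Prdx6b were listed at 0 in all 8 libraries. None of the other 8 (Gpx5, Gsta1, Gsta2, Gstm3, Gsto2, Gstp2, Gstp3 and Mgst2) passed an exact two-sided permutation test at an unadjusted p of under 0.05. Gstp2 came nearest, at 0.404 to 3.32 TPM in iKO cells and 0 to 0.693 TPM in WT cells (exact permutation p = 0.0857). With 1 library left out, when at least 3 had to reach 1 TPM, it met the filter without any 1 WT library and without iKO replicate 4. It was higher by limma without iKO replicate 4 (log2 fold change 1.25, adjusted p = 0.00439) or WT replicate 1 (1.08, 0.0377), but not without WT replicate 2, 3 or 4 (0.83 to 1.01, 0.0541 to 0.0858). The authors' deposited table called Gstp2 higher (log2 fold change 2.21, adjusted p = 0.0185). Gsta1, Gsta2 and their near-identical copy Gm10639 summed to 1.62 ± 0.385 TPM in iKO cells, against 0.635 ± 0.43 TPM in WT cells (SD, n = 4), with no overlap (exact two-sided permutation p = 0.0286), though Gsta1 and Gsta2 alone did not pass. Most of the difference lay in Gm10639, at 1.16 TPM (iKO) against 0.236 TPM (WT), while Gsta1 stood at 0.363 TPM (iKO) against 0.398 TPM (WT).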

How the data were processed

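The authors deposited TPM values per gene for each of the 8 libraries, a unit that keeps no depth, so no counting interval was given. Their deposited comparison lists, per the file headers, the mean normalized signal over all libraries, log2 fold changes and standard errors, the score of each test, and p-values before and after adjustment. Per the labels' protocols, Smart-Seq2 cDNA was sheared and sequenced as paired ends. The genome build, aligner and quantifier, with its version, were not given in the sources used here.

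Groups and replicate numbers came from the sample titles. The main test was limma 3.58.1 (R 4.3.3; trend, robust) on log2(TPM + 1) for genes with at least 1 TPM in at least 4 libraries. Differences of mean log2(TPM + 1), with WT subtracted from iKO, are given as log2 fold changes; they understate changes of low genes. Genes below the filter, and sums of near-identical copies (at least 95% identity over at least 50% of the shorter of the longest transcripts, GENCODE M21, blastn 2.17.0), were compared by exact two-sided permutation over 70 assignments. Any of the 60 genes could be named; values in every library were given for changed genes with an absolute log2 fold change of at least 0.5 and a mean of at least 5 TPM in either group, and for genes of at least 200 TPM. Gpx6 and Mgst2 were added after their values were seen. Of the other lists, the 4 genes with the smallest p could be named. The genes, lists and tests were chosen with earlier results of these data known. A symbol with 2 IDs was read from the ID listed first. The procedure was tested on simulated data. Settings tried besides were pseudocounts of 0.1 and 5, a replicate block, fits without each library in turn, other filters (none, or a mean of 5 TPM), trimmed mean factors, quantile normalization, a sex score (the mean of Ddx3y, Eif2s3y, Kdm5d and Uty minus Xist) as covariate, a loess length and GC trend removed (span 0.3), and the deposited comparison.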

Additional observations from a re-analysis of the deposited data

Results flagged for a closer look

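In 105 groups of 4 libraries, 7 held a library far from the other 3, by Dixon's criterion on the gap over the group's range; chance flags about 1 group in 20. Mgst2 stood at 2.94 TPM in iKO replicate 4, against 0 to 0.0718 TPM in the other iKO libraries. Gpx3 stood at 62.2 TPM in iKO replicate 4, against 57.6 to 58.3 TPM, and Txnrd3 at 16.8 TPM there, against 14.5 to 14.6 TPM. Gsta4 stood at 6.78 TPM in iKO replicate 3, against 6.11 to 6.18 TPM, and Gstm2 at 7.12 TPM in iKO replicate 2, against 8.58 to 8.59 TPM. Sod2 stood at 155.9 TPM in iKO replicate 1, against 151.1 to 151.7 TPM. In WT, Gsta1 was listed at 0 in replicate 2, against 0.527 to 0.535 TPM in the others. Gsta4, Gpx3 and Sod2 kept their calls without these libraries.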

How the results depend on the processing

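Besides the sex score there were 17 alternatives. Of the 36 changed genes, 31 kept their direction and call under each of these in which they were tested. The 31 include Gpx6, which passed the filter through the iKO libraries alone. They also include Gstt3. Gpx6 and Gstt3 were too low to be tested with a mean of at least 5 TPM, where 34 of the 36 calls were found again. Gpx7, Gstk1, Prdx3, Prdx4 and Txnrd1 lost their calls under 1 or more of the 17. Under those 17, 19 to 22 of the 60 genes were higher and 13 to 18 lower, and 6933 to 9969 of all genes changed. The sex score separates the groups completely, so score and genotype cannot be told apart; with it 423 genes changed, 5 antioxidant genes were higher (Gpx6, Prdx2, Prdx6, Sod3 and Txn2) and 0 lower by limma (9 and 10 at an unadjusted p under 0.05), and 12 of the other lists' genes changed. It also turned the sign of Prdx3 (-0.077), Gstt3 (0.36), Gstk1 (0.038), Gsto1 (0.42), Gsta3 (-1.73), Gstm4 (0.16) and Txnrd3 (0.10); the cause was not tested. Uncalled genes turned sign in the authors' deposited table (Glrx5 0.096, Gstm6 -0.33, Glrx3 0.039, Gstm4 0.010, Cat 0.035 and Gstt2 0.091), with the length and GC trend removed (Glrx3 0.021, Cat 0.028), with trimmed mean factors (Cat 0.017) and with a pseudocount of 0.1 (Gstm6 -9.396e-05). Leaving out 1 library at a time gave Gstm6 -0.132 to 0.0913 and Gsta3 -0.0796 to 0.276. Sums of near-identical copies kept their direction and moved by less than 1 SD without any 1 library, and none of the 8 genes below the filter reached an unadjusted p of 0.05 with pseudocounts of 0.1 or 5. Same-numbered libraries did not deviate together (correlations of -0.044 to 0.00069), so no pairing by number was seen in these values. Such a check cannot show that the numbers pair nothing. With the replicate block 8097 genes changed, 20 antioxidant genes higher and 13 lower, and Gstk1, Prdx4 and Txnrd1 lost their calls. No depth is known, so genes near 0 TPM cannot be told from undetected ones.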
